A study of Drosophila melanogaster with 14 samples.

Results

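The Antennapedia complex of Drosophila melanogaster holds 5 Hox genes, lab, pb, Dfd, Scr and Antp. They were taken by name, through their FlyBase identifiers, and all 5 were present among the 14156 genes listed for the tissue set and the 15682 genes listed for the degradation set. The data are RNA-seq read counts from embryonic nuclei isolated by INTACT, a method that tags nuclei in 1 cell type and pulls them out of a lysate by affinity. The tissue set comprised mesodermal nuclei tagged under twi (genotype twi-INTACT) and neuronal nuclei tagged through elav (genotype elav>INTACT), each from embryos of stages 14-17 and of stages 10-13. Each combination of tissue and stage had 2 libraries. The degradation set comprised mesodermal nuclei of stages 14-17 from embryos that all carried twi-INTACT and a GFP-tagged Ubx protein, in 2 groups of 3 libraries. In the Ubx-degraded group Mef2 drove Nslmb, a fusion that sends GFP-tagged protein to degradation (twi-INTACT, Mef2>Nslmb,GFP-Ubx), and in the control group the Nslmb transgene was present without that driver (twi-INTACT; UAS-Nslmb,GFP-Ubx). The study asked how the Hox factor Ubx acts in lineage commitment. The genes of the Antennapedia complex were its more anterior relatives, read in the same libraries.

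Hox genes encode homeodomain transcription factors that give segments along the head-to-tail axis their identity, and they are expressed along that axis largely in the order in which they lie on the chromosome. In the fly the genes are split between the Antennapedia complex, which patterns the head and anterior thorax, and the bithorax complex (Ubx, abd-A and Abd-B), which patterns the posterior thorax and abdomen. Besides the epidermis, Hox genes are expressed in the central nervous system and in the mesoderm, where they pattern somatic muscle and the midgut muscle layer, and lab is also known for its part in the midgut endoderm.

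All 5 genes lie on chromosome arm 3R. On build BDGP6 (Ensembl annotation release 115), lab (FBgn0002522) runs from 6661427 to 6678590 on the minus strand and pb (FBgn0051481) from 6707800 to 6742063 on the minus strand. Dfd (FBgn0000439) runs from 6791836 to 6802428 on the plus strand, Scr (FBgn0003339) from 6823120 to 6849981 on the minus strand and Antp (FBgn0260642) from 6896253 to 6999228 on the minus strand. Each is annotated as protein-coding, and the merged exons span 3046 bases in lab, 3728 in pb, 2739 in Dfd, 4577 in Scr and 7945 in Antp. Antp is the longest, with 102976 bases between its ends. Other genes overlap 60.3% of that length in the annotation, but none of them is listed in the tables of the tissue set, so reads from them cannot be told apart from Antp reads. In the degradation set, lncRNA:CR43252, which overlaps Antp on the same strand, held 28 to 39 counts, against 1436 to 2124 counts for Antp. The other overlapping gene, CG46458, is listed in neither set, so its reads cannot be told apart from Antp reads there either. Exons of other genes on the same strand overlap 50.1% of the exon bases of Antp. Strand was not stated for the libraries, and for Scr, 5 long non-coding genes overlap 12.1% of its length without being listed in either set, so reads from them cannot be told apart from Scr reads.

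Counts assigned to genes totalled 12970816 to 17905141 per mesoderm library and 27924215 to 36150646 per neuronal library of the tissue set, and 24391565 to 28150883 per Ubx-degraded library and 24314883 to 31033963 per control library. The member with the fewest counts, pb, held at least 175 counts in every library of the tissue set and at least 52 in the degradation set. Mesoderm markers separated the tissues: 9 of 11 tested were higher and 1, the muscle myosin gene Mhc, lower in mesodermal than neuronal nuclei at stages 10-13, and 10 were higher and 0 lower at stages 14-17. Neuronal markers did so at stages 10-13, where 7 of 10 tested were lower in mesodermal nuclei and 1 higher, but at stages 14-17 0 of 10 were lower and 1 was higher, and their summed level was 1330 to 1790 CPM in mesodermal and 904 to 1180 CPM in neuronal nuclei. Neuronal nuclei of stages 14-17 therefore did not stand above mesodermal nuclei in this list, and each tissue difference at that stage is one between libraries as labelled. The gene elav, through which the neuronal tag was expressed, was too low in the tissue set to be tested, with group means of 0.084 to 0.254 CPM, but averaged 142 CPM in Ubx-degraded and 146 CPM in control mesodermal nuclei of the degradation set, whose tables were made separately, so its level in the tissue set does not check the labels. Epidermal markers moved with the tissues too, with 2 higher and 6 lower of 10 in mesodermal nuclei at stages 10-13 (summed level 1960 to 2200 CPM, against 4710 to 5320 CPM in neuronal nuclei) and 4 higher and 0 lower at stages 14-17 (4080 to 4470 CPM, against 3010 to 4290 CPM), and their part in the tissue results was not tested. Levels below are CPM, read counts scaled to a common size by the normalised library totals. Differences are log2 values ± SE from edgeR's quasi-likelihood test, and a gene passed at an adjusted p (Benjamini-Hochberg over all genes tested) under 5%. Where groups are said to overlap or not, the share of all genes doing so was not counted, and the separation is only a description. The labels do not say that replicates came from separate embryo collections, and p-values here reflect no more than the spread among these libraries, which may be technical.

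Mesodermal nuclei held more RNA of Scr and Antp than neuronal nuclei at both stages. At stages 14-17 lab and pb also passed as higher in mesoderm, with much less stable calls, and Dfd passed at neither stage. Thus 2 of 5 members passed at stages 10-13 and 4 of 5 at stages 14-17, all of them higher in mesoderm. Of all 10549 genes tested, 52.8% passed at stages 10-13 in either direction and 23.2% as higher in mesoderm, and at stages 14-17 41.1% passed in either direction and 19.0% as higher. Against shares of that size, 2 of 5 is not far from the background, and 4 of 5 is above it. The members' median log2 difference was 0.82 at stages 10-13 and 1.12 at stages 14-17, beside -0.08 and -0.12 for all genes tested. In RNA from whole nuclear isolates, fewer cells of a type and less RNA per cell cannot be told apart.

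Antp, which specifies the thorax and is known to be expressed in mesoderm and nerve cord of thoracic segments, had the largest fitted tissue difference of the 5 at stages 10-13. It stood at 450 and 432 CPM in the 2 mesoderm libraries of stages 10-13, against 140 and 145 CPM in the 2 neuronal libraries of that stage. At stages 14-17 it stood at 309 and 320 CPM in mesoderm, against 209 and 143 CPM in neuronal nuclei. Every mesoderm library was above every neuronal library. The difference was 1.63 ± 0.21 at stages 10-13, a 3.1-fold higher level (adjusted p = 0.000764, edgeR's quasi-likelihood test), and 0.84 ± 0.21 at stages 14-17, 1.79-fold higher (adjusted p = 0.0168, same test). The early difference passed in 16 of 16 alternative settings. The later difference passed in 12 of 16, and adjusted p reached 0.0984 without mesoderm replicate 1 or 2 of stages 14-17.

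Scr, which specifies the labial and first thoracic segments and the salivary gland, gave the steadiest result. It stood at 84.5 and 78.0 CPM in mesoderm at stages 10-13, against 48.5 and 43.8 CPM in neuronal nuclei. At stages 14-17 it stood at 119 and 106 CPM in mesoderm, against 50.5 and 52.8 CPM in neuronal nuclei. The 4 mesoderm libraries were all above the 4 neuronal libraries, and in no group of the tissue set did the 2 replicates differ by more than 1.12-fold. The difference was 0.82 ± 0.17 at stages 10-13 (1.76-fold, adjusted p = 0.00526, edgeR's quasi-likelihood test) and 1.12 ± 0.17 at stages 14-17 (2.18-fold, adjusted p = 0.00327). Both calls held in 16 of 16 alternative settings.

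The gene lab, which acts in the most anterior Hox domain of the head and in the midgut, passed between tissues at the later stage and not at the earlier one. Mesodermal nuclei of stages 10-13 held 34.0 and 41.2 CPM, against 47.0 and 35.0 CPM in neuronal nuclei, and these groups overlapped. Mesodermal nuclei of stages 14-17 held 105 and 82.0 CPM, against 50.5 and 14.7 CPM in neuronal nuclei, so the groups did not overlap but the 2 neuronal libraries differed 3.43-fold. The difference was -0.13 ± 0.50 at stages 10-13 (95% interval -1.29 to 1.03, adjusted p = 0.848, edgeR's quasi-likelihood test), and 1.52 ± 0.51 at stages 14-17 (2.86-fold, adjusted p = 0.0463). Its later call held in 8 of 16 alternative settings and was lost on leaving out any 1 of the 4 mesoderm or the 2 early neuronal libraries, where adjusted p reached 0.193. Without neuronal replicate 1 of stages 14-17 the difference was 2.64, and without neuronal replicate 2 it was 0.85.

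Because lab is also an endoderm gene, the endoderm marker list is given beside it. Of its 7 symbols 6 were listed, and their summed level was 726 to 774 CPM in mesoderm and 355 and 1100 CPM in the neuronal libraries of stages 14-17, with 941 to 948 CPM in mesoderm and 207 to 222 CPM in neuronal nuclei at stages 10-13. At stages 14-17 3 of the 6 passed as higher in mesoderm and 2 as lower, beside 19.0% and 22.1% of all genes. The markers higher in mesoderm were the transcription factors GATAe (255 CPM in mesoderm, against 73.2 CPM in neuronal nuclei), srp (283 against 103 CPM) and fkh (204 against 99.4 CPM). Of these, srp is also on the list of hemocyte (blood cell) markers used here, and fkh on the salivary gland list. The markers lower in mesoderm were Jon65Ai and Jon99Fi, proteases of the differentiated gut, which were at 0 in mesoderm replicate 1. The neuronal sum of 1100 CPM, in replicate 2, held 590 CPM of Jon99Fi and 238 CPM of Jon65Ai. With age in mesoderm GATAe, at 255 against 172 CPM, did not pass, and srp and fkh passed as lower. The part of endodermal nuclei in the lab result was not tested.

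The gene pb, needed for adult mouthparts and expressed in the maxillary and labial segments, was higher in mesoderm in every library pair but rested on few counts. It stood at 19.5 and 27.6 CPM in mesoderm at stages 10-13, against 15.5 and 8.47 CPM in neuronal nuclei. At stages 14-17 it stood at 21.7 and 23.1 CPM in mesoderm, against 12.6 and 5.85 CPM in neuronal nuclei. Every mesoderm library was above every neuronal library, but neuronal replicates differed by 1.83-fold and 2.16-fold. The difference was 0.98 ± 0.43 at stages 10-13 (95% interval -0.02 to 1.98, adjusted p = 0.09, edgeR's quasi-likelihood test), which passed in 5 of 16 alternative settings. It passed narrowly at stages 14-17, at 1.27 ± 0.43 (2.42-fold, adjusted p = 0.0492). The later call held in 6 of 16 alternative settings and in 1 of the 8 that left out a library, that without neuronal replicate 1 of stages 14-17. With any other single library left out, adjusted p reached up to 0.159.

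Dfd, which specifies the mandibular and maxillary segments, did not pass in either direction. It stood at 36.0 and 40.2 CPM in mesoderm at stages 10-13, against 34.1 and 25.3 CPM in neuronal nuclei, without overlap. At stages 14-17 it stood at 22.9 and 25.4 CPM in mesoderm, against 35.2 and 19.5 CPM in neuronal nuclei. The neuronal libraries of stages 14-17 lay on both sides of the mesoderm libraries. The difference was 0.36 ± 0.30 at stages 10-13 (95% interval -0.34 to 1.06) and -0.18 ± 0.30 at stages 14-17 (95% interval -0.89 to 0.53), and changes up to those bounds could not be told from none.

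**Figure D1:**
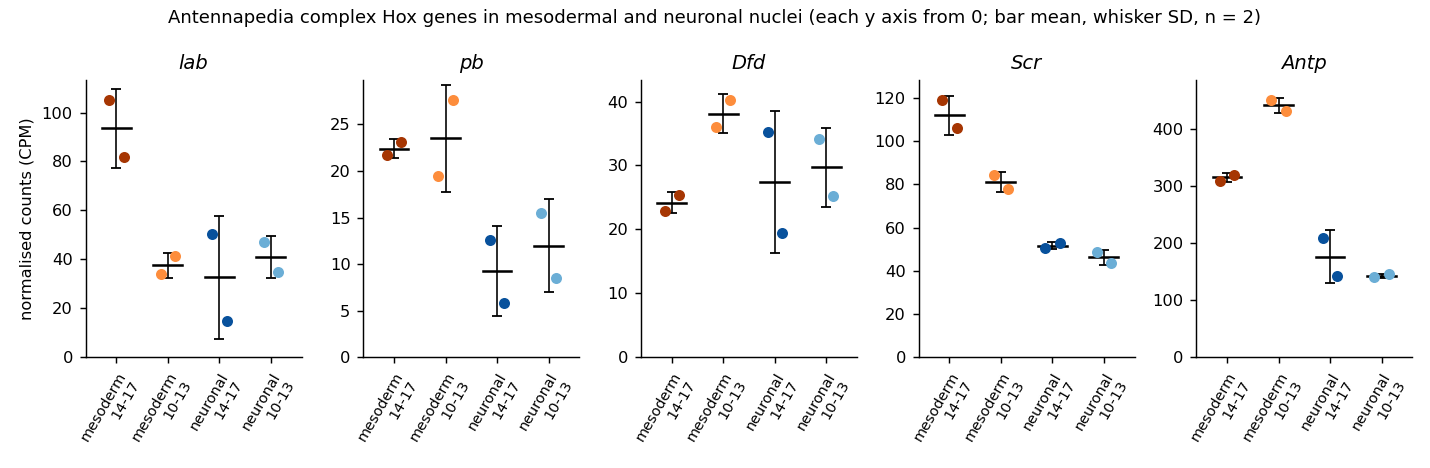
Normalised level in CPM (y axis, from 0, a separate scale per gene) of lab, pb, Dfd, Scr and Antp in each library of mesodermal and neuronal nuclei at stages 14-17 and 10-13 (x axis). Points are libraries, bars the mean and whiskers the SD (n = 2). The 4 mesoderm libraries sit above the 4 neuronal libraries for Scr, Antp and pb, and the share of all genes separated in this way was not counted. The Dfd values of the neuronal libraries of stages 14-17 lie on both sides of the mesoderm libraries of that stage.

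Across the 4 groups, the order of mean levels differed from gene to gene. For Antp it was mesoderm of stages 10-13 (441 ± 13.0 CPM), mesoderm of stages 14-17 (315 ± 7.82), neuronal of stages 14-17 (176 ± 46.2) and neuronal of stages 10-13 (142 ± 3.53, SD, n = 2 each), with only the 2 neuronal groups overlapping. For Scr it was mesoderm of stages 14-17 (112 ± 9.02 CPM), mesoderm of stages 10-13 (81.2 ± 4.60), neuronal of stages 14-17 (51.7 ± 1.62) and neuronal of stages 10-13 (46.2 ± 3.35), and no neighbouring groups overlapped. For lab, mesoderm of stages 14-17 led at 93.5 ± 16.2 CPM, and neuronal of stages 10-13 (41.0 ± 8.52), mesoderm of stages 10-13 (37.6 ± 5.04) and neuronal of stages 14-17 (32.6 ± 25.3) overlapped with each other. For pb mesoderm of stages 14-17 (22.4 ± 1.01 CPM) overlapped with mesoderm of stages 10-13 (23.5 ± 5.72), and neuronal of stages 14-17 (9.25 ± 4.80) with neuronal of stages 10-13 (12 ± 4.96). For Dfd the means ran from 38.1 ± 3.02 CPM in mesoderm of stages 10-13 to 24.2 ± 1.71 CPM in mesoderm of stages 14-17, with both neuronal groups between them, overlapping with each other and with mesoderm of stages 14-17.

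Levels were then compared between the genes on 2 length scales, CPM per kb of merged exon and CPM per kb of gene span, because it is not known whether reads in introns were counted. Of genes that reached 3000 counts over the degradation libraries, 195 of 204 that lie inside an intron of another gene (95.6%) had 0 counts in every library of the tissue set, against 9 of 4812 other genes (0.187%), and the sources used here do not give the counting setting. Per kb of exon, Antp was the highest and pb the lowest of the 5 in 14 of 14 libraries. Antp averaged 39.6 CPM per kb of exon in mesoderm of stages 14-17, where lab followed at 30.7, Scr at 24.6, Dfd at 8.82 and pb at 6.01 on the same scale. In mesoderm of stages 10-13 lab was the fourth on this scale, at 12.3 CPM per kb of exon behind Antp (55.5), Scr (17.8) and Dfd (13.9). Per kb of gene span pb was again the lowest in 14 of 14 libraries, but Antp led in only 4, Scr in 5, Dfd in 3 and lab in 2. The 2 that lab led were the mesoderm libraries of stages 14-17. The rank of the long gene Antp among the members thus turned on the length used, and that of pb did not.

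The members' share of the length-scaled level summed over all 8 Hox genes gave a value per library that no library-wide scaling affects. Per kb of exon, the 5 genes took 36.1 and 41.5% in the mesoderm libraries of stages 14-17, against 24.9 and 25.6% in those of stages 10-13. In neuronal nuclei they took 34.6 and 46.2% at stages 14-17, against 41.1 and 45.3% at stages 10-13. The mesodermal stages did not overlap, and the neuronal stages did. On the gene span scale the same shares were 36.5 to 41.7% and 25.9 to 26.5% in mesoderm at the later and earlier stage, and 28.8 to 42.4% and 38.8 to 43.2% in neuronal nuclei. Within the complex, lab took 25.4 to 30.3% of the summed level of the 5 per kb of exon in mesoderm of stages 14-17, against 10.7 to 12.6% at stages 10-13, and Antp took 34.3 to 38.1%, against 50.8 to 54.1%. These shares are descriptions without a test, and a share can change because any other gene in the sum does. In CPM without length scaling, the 5 genes summed to 578 and 557 in mesoderm of stages 14-17, against 624 and 619 at stages 10-13. Ubx, abd-A and Abd-B summed to 868 and 1020 CPM, against 1670 and 1660 CPM. The larger mesodermal share at stages 14-17 thus came without a higher summed CPM of the 5 genes.

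**Figure D2:**
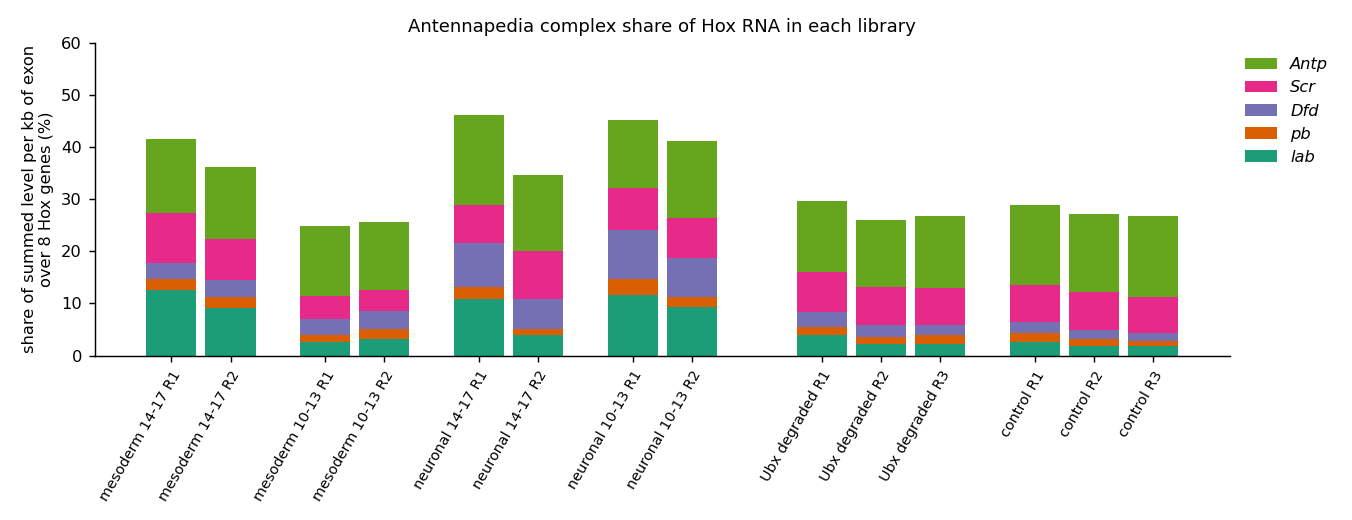
Share in percent (y axis, from 0) of lab, pb, Dfd, Scr and Antp in the level per kb of exon summed over 8 Hox genes, 1 stacked bar per library (x axis, R1 to R3 are replicates). The rest up to 100% is Ubx, abd-A and Abd-B. The 2 mesoderm libraries of stages 14-17 reach 36.1 and 41.5%, above the 2 of stages 10-13 at 24.9 and 25.6%. In these libraries the summed CPM of Ubx, abd-A and Abd-B was lower at stages 14-17, and that of the 5 genes was not higher.

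With embryonic age in mesoderm, Scr passed as higher at stages 14-17 than at stages 10-13, narrowly, and no other of the 5 Hox genes passed. Of all genes tested, 47.7% passed in this comparison in either direction, 24.9% as higher and 22.7% as lower, so 1 of 5 is near the background, and the members' median log2 difference was -0.07 beside 0.00 for all genes. The Scr libraries of mesoderm, 119 and 106 CPM at stages 14-17 against 84.5 and 78.0 CPM at stages 10-13, did not overlap. Scr differed by 0.47 ± 0.17 (1.38-fold, adjusted p = 0.0495, edgeR's quasi-likelihood test). This call held in 6 of 16 alternative settings, and was lost on leaving out any 1 of the mesoderm libraries or of the early neuronal libraries, where adjusted p reached 0.26. The gene lab showed a larger but more variable difference, 1.31 ± 0.51, from 105 and 82.0 CPM at stages 14-17 against 34.0 and 41.2 CPM at stages 10-13, with a 95% interval of 0.13 to 2.49 and an adjusted p of 0.0655 in the same edgeR test. It passed in 5 of 16 alternative settings. With any 1 library left out, the difference ran from 1.1 to 1.44 for lab, from -0.77 to -0.61 for Dfd and from -0.55 to -0.48 for Antp. Antp differed by -0.49 ± 0.21 (adjusted p = 0.0886) and Dfd by -0.66 ± 0.30 (adjusted p = 0.112), both without overlap between the stages, and pb by -0.07 ± 0.43, with overlap. Markers of other cell types moved with age in the same libraries. Of 10 tested neuronal markers, 9 were higher and 1 lower at stages 14-17 (summed level 1330 to 1790 CPM, against 592 to 603 CPM at stages 10-13), and of 10 epidermal markers 7 were higher and 1 lower (4080 to 4470 CPM, against 1960 to 2200 CPM). Their part in the Scr and lab values was not tested.

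In neuronal nuclei 0 of 5 members passed between stages 14-17 and 10-13, also at an unadjusted p under 0.05, with 20.4% of all genes passing after adjustment. DESeq2 and limma-voom also called 0 of 5. The values were -0.33 ± 0.50 for lab, -0.37 ± 0.43 for pb, -0.12 ± 0.30 for Dfd, 0.16 ± 0.17 for Scr and 0.31 ± 0.21 for Antp. The 95% intervals still reached -1.49 for lab, -1.36 for pb and 0.79 for Antp. Replicate 2 of the neuronal libraries of stages 14-17 was lower than replicate 1 for lab, pb, Dfd and Antp, and not for Scr. Without it lab differed by 0.37, and without replicate 1 by -1.44 (adjusted p = 0.00445), so the 2 libraries decide the direction of lab. Without replicate 2 Antp passed as higher, at 0.62 (adjusted p = 0.0386).

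**Figure D3:**
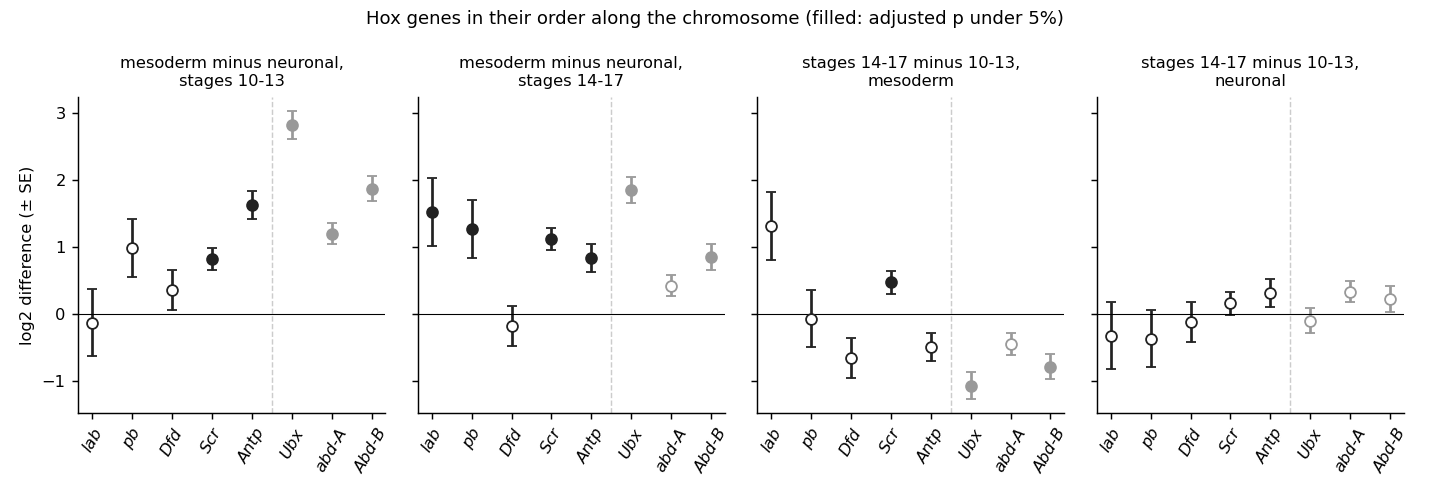
Log2 difference ± SE (y axis) for 8 Hox genes in their order along the chromosome (x axis), for mesoderm minus neuronal nuclei at each stage and for stages 14-17 minus 10-13 in each tissue. Black marks the Antennapedia complex and grey the bithorax complex, and filled points passed at an adjusted p under 5%. Scr and Antp are filled in both tissue panels, and no point is filled in the neuronal stage panel.

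The stage difference in mesoderm minus that in neuronal nuclei was tested directly, and 0 of 5 members passed, with 35.4% of all genes passing. Antp, at -0.79 ± 0.29, had an unadjusted p of 0.028 and an adjusted p of 0.0694, and lab, at 1.64 ± 0.71, an adjusted p of 0.107 (edgeR's quasi-likelihood test). With DESeq2 and with all 14 libraries in 1 fit, Antp passed. Leaving out neuronal replicate 1 of stages 14-17 gave a lab value of 2.73 and leaving out replicate 2 a value of 0.90. Without replicate 2 Dfd stood at -1.01 and Antp at -1.14. In the bithorax complex the same difference passed for all 3 genes, at -0.97 ± 0.27 for Ubx, -0.78 ± 0.23 for abd-A and -1.01 ± 0.27 for Abd-B (adjusted p of 0.0299, 0.0323 and 0.0233). Of the Antennapedia complex, Antp lies nearest to these values, Dfd (-0.54 ± 0.43) has the same sign, and lab, pb (0.30 ± 0.60) and Scr (0.31 ± 0.23) have the opposite sign. None of the 5 passed in the main test, and the values of lab, Dfd and Antp depended on single neuronal libraries of stages 14-17.

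The bithorax genes were also higher in mesoderm than in neuronal nuclei. At stages 10-13 Ubx differed by 2.82 ± 0.21, abd-A by 1.20 ± 0.16 and Abd-B by 1.87 ± 0.19, and 3 of 3 passed. Of all genes, 23.2% passed as higher in mesoderm at that stage and 19.0% at stages 14-17. At stages 14-17 Ubx, at 1.85 ± 0.20, and Abd-B, at 0.85 ± 0.19, passed and abd-A, at 0.42 ± 0.16, had an adjusted p of 0.0692. Along the 8 genes, the early tissue difference was larger for Antp and the bithorax genes than for lab, pb, Dfd and Scr, a description of the fitted values. With age, Ubx fell by 1.07 in mesoderm and Abd-B by 0.79 on the log2 scale, and abd-A, at -0.45 with an adjusted p of 0.051 in edgeR, did not pass, beside -0.49 for Antp, likewise not passed, and 0.47 for Scr.

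When Ubx protein was degraded in the Mef2 lineage, no member of the Antennapedia complex passed. Of all 11641 genes tested, 4.78% passed (557 genes, 416 higher and 141 lower), and 0 of 5 members passed with edgeR, also at an unadjusted p under 0.05, and 0 with DESeq2 or limma-voom. The count over all genes rested on single libraries, with 753 higher and 892 lower without control replicate 3, and 34 to 316 calls, most of them higher, without any other single library. Antp stood at 58.1, 64.1 and 76.2 CPM in the Ubx-degraded libraries, against 71.7, 67.9 and 75.5 CPM in the controls, and the groups overlapped. Scr stood at 19.0, 20.7 and 23.2 CPM in the degraded libraries, against 18.7, 19.0 and 19.3 CPM in the controls, also with overlap. The differences were -0.12 ± 0.13 for Antp (95% interval -0.42 to 0.19) and 0.14 ± 0.13 for Scr (95% interval -0.16 to 0.44). For these better-measured genes the intervals leave room for changes of up to those bounds.

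The 3 genes of the head segments were rare in the degradation set, with 52 to 159 counts per library. Dfd stood at 4.49, 3.90 and 3.64 CPM in the degraded libraries, against 3.52, 2.65 and 2.55 CPM in the controls, and was the only member whose groups did not overlap. The share of all genes without overlap was not counted, so the separation is a description and not a result about Dfd. Dfd differed by 0.46 ± 0.21 (95% interval -0.01 to 0.93, adjusted p = 0.21, edgeR's quasi-likelihood test). The gene lab, at 6.43, 4.19 and 4.85 CPM in degraded libraries against 4.55, 3.33 and 3.23 CPM in controls, differed by 0.47 ± 0.23 (95% interval -0.05 to 1.0, adjusted p = 0.246), with overlap. The gene pb, at 2.99, 3.16 and 4.08 CPM in degraded libraries against 3.87, 2.88 and 2.21 CPM in controls, differed by 0.19 ± 0.25 (95% interval -0.39 to 0.76). None of the 13 alternative settings called any of the 5. Epidermal markers moved in this comparison, with 4 of 10 higher and 0 lower and a summed level of 2850 to 3010 CPM in degraded libraries, against 1580 to 1850 CPM in controls. Their part in the values of Dfd and lab was not tested. Nslmb acts on protein, so Ubx RNA, at 0.21 ± 0.15, does not check the labels.

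**Figure D4:**
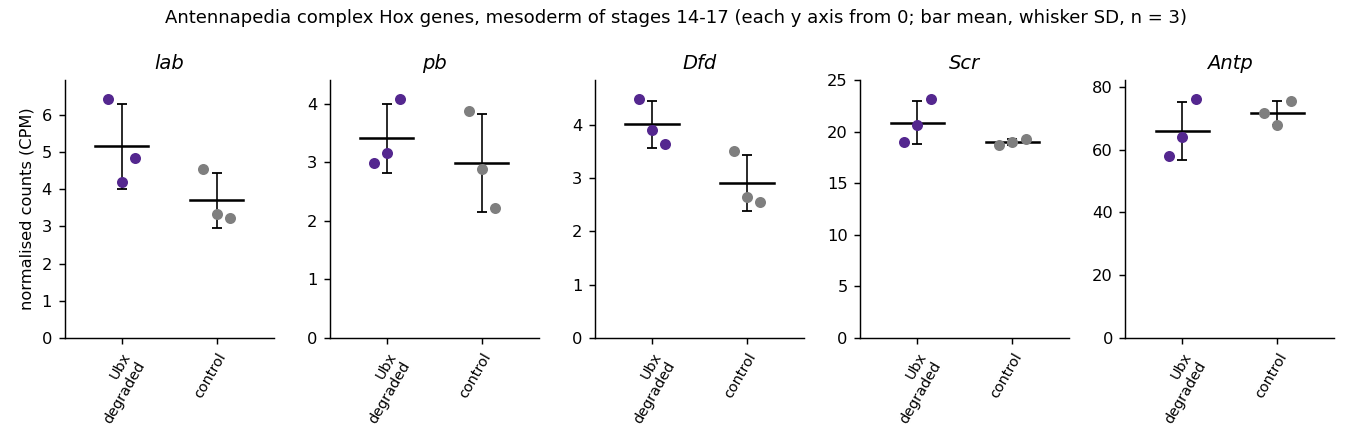
Normalised level in CPM (y axis, from 0, a separate scale per gene) of the 5 genes in mesodermal nuclei of stages 14-17 with Ubx degraded and in controls (x axis). Points are libraries, bars the mean and whiskers the SD (n = 3). Only for Dfd do the degraded libraries (3.64 to 4.49 CPM) all lie above the controls (2.55 to 3.52 CPM), and Dfd did not pass.

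Set side by side without a test, because the tables were made and normalised separately, the members were lower in controls of the degradation set than in the other mesoderm libraries of stages 14-17. Antp averaged 71.7 CPM in the controls and 315 CPM in the tissue set, Scr 19.0 and 112 CPM, Dfd 2.91 and 24.2 CPM, pb 2.99 and 22.4 CPM, and lab 3.70 and 93.5 CPM. The log2 gap was -2.13 for Antp and -4.66 for lab, beside a median of -0.60 (quartiles -1.24 and 0.14) over 8757 genes with at least 1 CPM in both. The bithorax genes were lower as well, by gaps of -2.61 for Ubx, -1.50 for abd-A and -1.62 for Abd-B. Differences in counting and annotation cannot be told apart from differences in genotype or collection here.

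The complex also holds genes that are not Hox genes, early patterning regulators and a cell surface protein. Of these, zen2 was too rare to test in either set, with less than 1 CPM in every group. Of the 4 tested in the tissue set, Ama, an immunoglobulin-family surface protein, was higher in mesoderm at stages 10-13 by 2.20 ± 0.30 (802 CPM, against 174 CPM in neuronal nuclei). The early dorsal patterning gene zen also passed, by 1.73 ± 0.57, at means under 1 CPM. At stages 14-17 ftz, a pair-rule gene, was lower in mesoderm by a log2 difference of -3.31 ± 0.49 (0.717 CPM against 7.14 CPM in neuronal nuclei). Of all genes, 23.2% passed as higher in mesoderm at stages 10-13, and 22.1% as lower at stages 14-17. With age in mesoderm, 3 of 4 passed as lower (Ama by -2.31, bcd by -2.26 and ftz by -4.53), the median was -2.29, and 0 of 4 passed as higher. Of all genes, 22.7% passed as lower in that comparison. In neuronal nuclei only bcd, a maternal anterior determinant, passed, at -1.48. In the degradation set 0 of 3 tested passed.

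Hox proteins bind DNA with the homeodomain cofactors exd and hth, and other partners such as tsh, tio, disco and cnc act beside Hox genes in trunk and head. Of the 6 tested, 3 were higher in mesoderm at stages 10-13 and 4 at stages 14-17, with 0 lower at either stage, and medians of 0.73 and 0.92, where 23.2% and 19.0% of all genes passed as higher. The strongest was hth, at 6730 CPM in mesoderm against 719 CPM in neuronal nuclei at stages 10-13, a difference of 3.23 ± 0.32, followed by disco at 1.89 ± 0.20. At stages 14-17 hth differed by 2.97 ± 0.32 and cnc, which acts in the mandibular segment, by 1.20 ± 0.16. With age in mesoderm 2 passed as higher (cnc by 0.77 and tio by 1.03), and in neuronal nuclei 2 passed as higher (disco by 1.06 and exd by 1.04) and 1 as lower (cnc by -0.85). In the degradation set 0 of 6 passed.

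Genes that act in the same domains were counted as well, against the shares of all genes. Of all genes, 23.2% and 19.0% passed as higher in mesoderm at stages 10-13 and 14-17, and 22.7% as lower with age in mesoderm. In the degradation set 3.57% of all genes passed as higher. Of 8 head patterning genes, 6 passed as higher in mesoderm at stages 10-13 and 1 at stages 14-17, with 0 lower and medians of 1.28 and -0.10, and 5 passed as lower with age in mesoderm. Among them were btd, at 2.22 ± 0.23 between tissues at stages 10-13 and -2.89 ± 0.24 with age in mesoderm, and oc, which passed in the degradation set at 0.83 ± 0.16. The salivary gland list, which holds genes of the organ that Scr specifies, had 2 of 9 tested members higher in mesoderm at stages 10-13 and 3 higher and 1 lower at stages 14-17, with medians of 0.20 and 0.12. Its regulators fkh and CrebA differed by 2.56 ± 0.16 and 1.16 ± 0.23 at the earlier stage, and fkh is also an endoderm marker. In the degradation set 2 of the 9 passed as higher, fkh (0.73 ± 0.12) and trh (0.87 ± 0.13). Scr did not pass there, and a link between these values was not tested. Of 10 tested genes of the visceral mesoderm and midgut, 9 passed as higher in mesodermal nuclei at stages 10-13 and 8 at stages 14-17, with 0 lower and medians of 1.94 and 1.18, led by org-1 at 3.33 ± 0.19 at the earlier stage and vn at 3.43 ± 0.18 at the later stage. In the degradation set 2 of the 10 passed as higher, Fas3 at 0.91 ± 0.16 and odd at 0.76 ± 0.15.

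Polycomb and trithorax group proteins hold Hox genes in their silent and active states. Of 17 tested Polycomb genes, 12 passed as higher in mesoderm at stages 10-13 with 0 lower, and at stages 14-17 5 passed as higher and 2 as lower, with medians of 0.92 and 0.33. Of 14 tested trithorax genes, 11 were higher with 0 lower at stages 10-13, and 6 higher with 2 lower at stages 14-17, with medians of 1.32 and 0.78. Of all genes tested, 23.2% passed as higher and 29.5% as lower at stages 10-13, and 19.0% and 22.1% at stages 14-17. Against those shares, 5 of 17 Polycomb genes is not far from the background. With age in mesoderm, 11 Polycomb genes passed as lower and 1 as higher, with a median of -0.66, and 9 trithorax genes passed as lower and 0 as higher, with a median of -0.92, where 22.7% of all genes passed as lower. In neuronal nuclei 1 Polycomb gene passed as higher and 0 as lower, and 1 trithorax gene as lower and 0 as higher. In the degradation set 0 of 17 Polycomb genes and 1 of 13 trithorax genes passed, where 4.78% of all genes passed.

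The genes whose log2 level across the 8 libraries of the tissue set was most like that of each member were found by Pearson's r among about 6864 genes. The libraries share tissue, stage and depth, so these values only describe the shape of a profile. For Antp the closest were fra, a Netrin receptor (r = 0.996), CG32813 (0.992) and comm, a regulator of midline crossing (0.991). For Scr they were Ca-Ma2d (0.991), dlg1, a junction and synapse scaffold (0.990), and osp (0.989). For lab they were Gyc88E, fry and Rhp (0.991, 0.982 and 0.972 in that order), for pb na (0.998), Saf-B (0.990) and B52 (0.986), and for Dfd CG5555 (0.988), CG9346 (0.987) and CG12219 (0.960). No member was among the closest of another, but Antp, with 60.3% of its span overlapped, was not among the genes compared. Between members r was highest for pb and Antp (0.82) and for Scr and Antp (0.80), and lowest for Dfd with Scr (-0.07) and with lab (0.13), over the same 8 libraries.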

How the data were processed

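RNA from INTACT-isolated nuclei was measured in 14 libraries. The deposited values are whole-number read counts for each gene. HTSeq and FastQC are named in the submitters' processing notes, as are builds BDGP6 and dm6, and the sources used here give no aligner, version, strand or counting setting. Counts in the degradation set came with lines for reads assigned to no gene, which were left out of library sizes: 42.83 to 48.55% of reads aligned to several places and 7.36 to 8.87% lay in no gene. The 2 sets list different genes (13765 shared) and were fitted apart.

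Genes were filtered by filterByExpr (minimum count 10, minimum total 15) and normalised by TMM. The main test was the quasi-likelihood test of edgeR 4.0.16 in R 4.3.3, with 1 fit per set, group as the only term, 4 residual degrees of freedom and Benjamini-Hochberg adjustment. CPM used TMM-normalised library sizes, and 95% intervals used the moderated degrees of freedom. edgeR's common biological coefficient of variation came to 0.277 for the tissue set and 0.191 for the degradation set.

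Alternatives were RLE size factors, library totals alone, no filter, a replicate block, DESeq2 1.42.0, limma-voom (limma 3.58.1), each library left out, only the 4 libraries compared and all 14 in 1 fit. Symbols came from Ensembl release 115, with a symbol for 98.4% and 95.7% of genes. Named genes are the 5 members, the bithorax genes, the 3 genes most like each member (log2 CPM with a prior count of 2, mean of at least 10 CPM, under 40% of span overlapped) and up to 3 of each list with the smallest adjusted p. The members and lists were chosen with earlier results of these data known. The list symbols disco-r, wg and hnt were listed in neither set and are not analysed here. The genes kis and Su(z)2 were listed only in the tissue set and are analysed only there. The Polycomb gene esc, at 0 CPM in every group of the tissue set, was not tested there.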

Additional observations from a re-analysis of the deposited data

How the results depend on the processing

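The calls of Scr at both stages and of Antp at stages 10-13 between tissues held in every alternative run. The number of members higher in mesoderm at stages 14-17, 4 of 5, was 1 (Scr) with library totals alone and with only the 4 libraries compared, and 1 to 4 with 1 library left out. For mesoderm with age, 1 of 5, it was 0 with library totals alone, without the filter, with the replicate block and with limma-voom, 2 (lab and Scr) with DESeq2 and with all 14 libraries, 4 (lab, Dfd, Scr and Antp) with only the 4 libraries compared, and 0 to 4 with 1 library left out. For neuronal nuclei with age it was 0 to 1 with 1 library left out, and for the difference of stage changes 1 (Antp) with DESeq2 and with all 14 libraries and 0 to 3 with 1 left out. The causes were not tested.

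Library totals alone moved the median of all genes between tissues to -0.33 at stages 10-13 and -0.42 at stages 14-17, from -0.08 and -0.12, and the split of calls to 1664 higher and 3707 lower and to 1375 higher and 3554 lower, against 2451 and 3115 and 2004 and 2336 as reported. Counts over all genes were, at stages 14-17 between tissues, 2810 with only the 4 libraries compared and 1328 to 5647 with 1 left out (4340 as reported). They were 2862 to 6267 with 1 left out for mesoderm with age (5027), 765 with only the 4 libraries compared, 3274 with all 14 and 386 to 4231 with 1 left out for neuronal nuclei with age (2154), and 2000 to 5261 with 1 left out for the difference (3730). For degraded against control they were 1238 (743 higher, 495 lower) with the replicate block, 1212 (718 higher, 494 lower) with DESeq2, 180 with all 14 and 34 to 1645 with 1 left out (557), where the 1645 calls, 753 higher and 892 lower, came without control replicate 3.

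No value reported as passing reversed. With 1 library left out, the log2 difference between tissues ran from -0.30 to 0.14 for lab at stages 10-13 and from -0.58 to 0.28 for Dfd at stages 14-17. With age it ran from -0.33 to 0.16 for pb in mesoderm, and in neuronal nuclei from -1.44 (which passed) to 0.37 for lab, from -1.0 to 0.16 for pb and from -0.57 to 0.32 for Dfd. In the difference of stage changes pb ran from -0.27 to 0.90. In the tissue set deviations of same-numbered libraries from their group means correlated at -0.14 to 0.16. With 2 libraries a group these deviations mirror each other, so the values cannot show whether replicate numbers pair the libraries. In the degradation set deviations of same-numbered libraries correlated at 0.22, 0.09 and 0.27, against -0.26 to 0.10 for libraries of different numbers. Each degraded library correlated best with the control of its own number, though control replicate 2 correlated best with another number (0.10). Whether numbers mark a shared collection in that set is not stated. With the replicate block 0 of 5 members passed in the degradation set. With 2 libraries a group in the tissue set, and with 52 to 159 counts a library for lab, pb and Dfd and 3 libraries a group in the degradation set, changes inside their intervals could not be told from none.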
